A study of Mus musculus with 4 samples.

Results

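miR-21a is the mouse form of miR-21, a microRNA (miRNA) widely described as pro-fibrotic. The rows for its mature products were read by name from the 4 count tables of the series, and both were present, mmu-miR-21a-5p and mmu-miR-21a-3p (below without the prefix for mouse), of 1907 mature miRNAs in all. The tables come from small RNA sequencing of whole liver from C57BL/6 mice aged 15 weeks. In the treated group (2 libraries, TAA 1 and TAA 2) the mice had received thioacetamide (TAA), a hepatotoxin that causes liver fibrosis, by intraperitoneal injection at 200 mg/kg, 3 times a week for 10 weeks. In the control group (2 libraries, control 1 and control 2) the labels give the treatment as control and say nothing of a vehicle. The series calls the libraries biological replicates without naming animals, so that p-values measure the spread between these libraries. The question was which miRNAs change as TAA-induced fibrosis progresses.

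A miRNA is cut from a hairpin in a longer transcript, and the hairpin's 5′ and 3′ arms give the 5p and 3p mature strands. One strand, here mainly 5p, is loaded into Argonaute and pairs with target mRNAs through its seed, bases 2 to 8, while the other is mostly degraded. miR-21 is transcribed from a promoter of its own inside the gene Vmp1, is induced by STAT3, AP-1 and TGF-beta signalling, and represses mRNAs such as those of Pdcd4 and Smad7. In liver it is present in hepatocytes, leukocytes and hepatic stellate cells, the main collagen-producing cells of fibrosis. In whole-tissue RNA, a change in the number of cells of one type and a change in the RNA per cell cannot be told apart.

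The mature strands are shown because their seeds set their targets and because close relatives could share their reads. Seeds are in capitals, and sequences are RefSeq's for GRCm38, the assembly also called mm10.
miR-21a-5p: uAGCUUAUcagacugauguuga
miR-21a-3p: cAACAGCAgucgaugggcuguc
miR-21b: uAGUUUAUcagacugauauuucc
miR-21c: uAGCUUAUcagacugguacaa
The strands of miR-21a lie on the minus strand of chromosome 11, 5p at 86584120 to 86584141 and 3p at 86584082 to 86584103. In the GENCODE annotation the hairpin (86584067 to 86584158) lies in exon 12 of Vmp1, within its 3′ UTR. In the fold of lowest energy, 19 of the 22 bases of 5p pair with 3p, including all 7 of its seed.

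miR-21c was the only other mature miRNA of the RefSeq table with the seed of miR-21a-5p, and none shared the seed of miR-21a-3p. Counted from the 5′ end of miR-21a-5p, miR-21b differs from it by C4U, which lies in the seed, and by G18A, G21U and A22C. miR-21c differs by A16G, G18A, U19C, U20A and G21A, all outside the seed. Both relatives were rare. Counts of miR-21b were 64 and 105 in the controls and 81 and 110 after TAA, and those of miR-21c were 21 and 53 in the controls and 24 and 42 after TAA. For each count of miR-21b there were 15345 to 19983 counts of miR-21a-5p in the same library. The sources used here do not say how reads matching several loci were assigned, so the counts of both relatives are uncertain, while moving all of them would change miR-21a-5p little. Neither relative passed the test between groups (log2 fold change of miR-21b -0.01, SE 0.31, and of miR-21c -0.36, SE 0.51).

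The libraries held 42609845 to 48878003 miRNA counts. Hepatocyte miRNAs (miR-122, miR-192, miR-194 and miR-148a strands) took 33.0% to 35.2% of them, so the labelled tissue was matched by its markers. In markers of other cells, 2 libraries stood apart. Control 1 had 4373 counts of miR-375-3p, an islet and pancreas miRNA, against 362 to 481 in the others. Its counts of the pancreatic miR-216a-5p and miR-217-5p were 113 and 125, against at most 10 of either elsewhere, and both were at 0 in control 2, which allows up to 3 counts. TAA 2 had 0.202% of counts in 4 erythroid miRNAs, against 0.0181% to 0.0550% in the others. Results for miR-21a are therefore given with and without these libraries.

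miR-21a-5p was one of the most abundant miRNAs of the liver in both groups. It took 2.77% of miRNA counts in control 1, 3.49% in control 2, 3.69% in TAA 1 and 3.58% in TAA 2. The widest 95% Wilson interval, that of TAA 1, ran from 3.687% to 3.698%. It covers counting error only, which was far smaller than the differences between libraries. It ranked 8 in control 1 and 7 in the other 3 libraries. By mean level it followed miR-26a-5p, which was higher in all 4 libraries, and preceded miR-27b-3p, which was higher in control 1. The ranges of both neighbours overlapped that of miR-21a-5p.

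After scaling with TMM factors, which correct library size for composition, miR-21a-5p measured 27862 CPM (counts scaled to library size) in control 1, 37692 in control 2, 35613 in TAA 1 and 34083 in TAA 2. Control 1 was the lowest and control 2 the highest, with both TAA libraries between them. The control mean was 32777 ± 6950 CPM and the TAA mean 34848 ± 1082 CPM (SD, n = 2). The log2 fold change was 0.09 (SE 0.14), or 1.06-fold with a 95% interval of 0.85 to 1.33, and miR-21a-5p did not pass edgeR's quasi-likelihood test (adjusted p = 0.787). The interval leaves room for a rise of up to 1.33-fold or a fall to 0.85 of the control level, and the result does not show that the groups were alike. With 2 libraries against 2, an exact permutation test of a single value cannot go below p = 0.333.

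miR-21a-3p, the passenger strand, had 12220 counts in control 1, 20236 in control 2, 14703 in TAA 1 and 17112 in TAA 2. It ranked 69 in control 2 and 84 to 86 in the other libraries. Scaled with TMM factors it measured 289 CPM in control 1, 473 in control 2, 323 in TAA 1 and 334 in TAA 2. Again control 1 was the lowest and control 2 the highest, and the TAA libraries lay between them. By mean level its neighbours were miR-146a-5p above and miR-23a-3p below, each higher than miR-21a-3p in 2 of the 4 libraries. The means were 381 ± 131 CPM in control and 329 ± 7.12 CPM in TAA (SD, n = 2), with a log2 fold change of -0.21 (SE 0.21), or 0.86-fold with a 95% interval of 0.61 to 1.22 (edgeR adjusted p = 0.614). Of the pair, 0 passed edgeR's test, beside 16.6% of the 644 miRNAs tested. The unadjusted p was 0.550 for 5p and 0.349 for 3p, and 0 of the pair passed with DESeq2 or limma-voom.

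**Figure D1:**
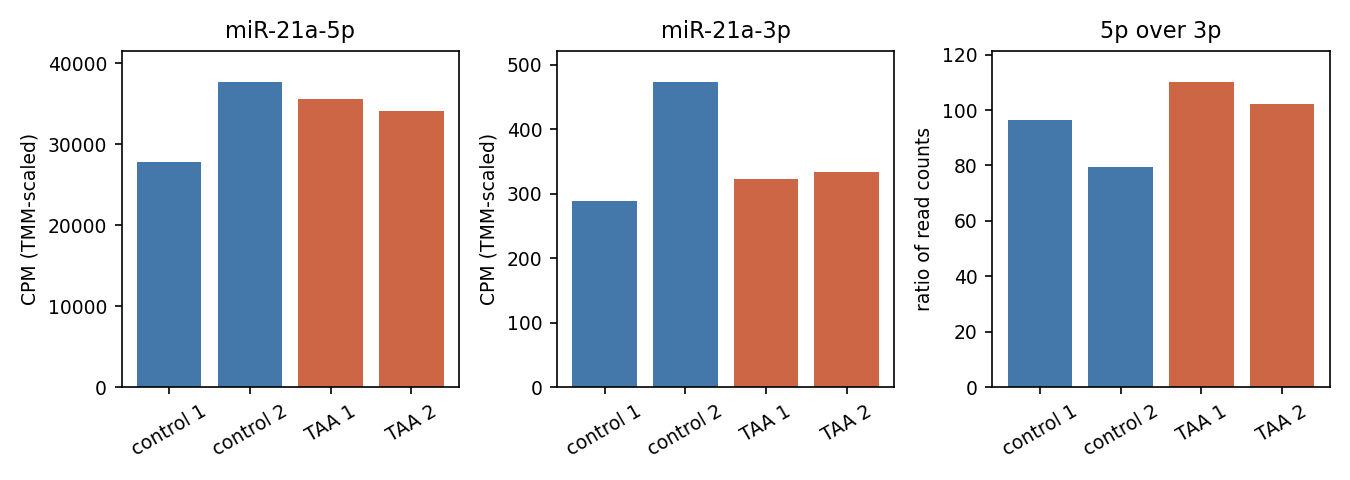
TMM-scaled level in CPM of miR-21a-5p (left) and miR-21a-3p (middle), and the ratio of their read counts (right), with 1 bar per library (blue control, orange TAA). For each strand the TAA bars lie between the control bars, while the ratio is higher in both TAA libraries (102 and 110) than in both controls (79.6 and 96.5).

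The reads of the 5p strand outnumbered those of 3p by 96.5 to 1 in control 1, 79.6 to 1 in control 2, 110 to 1 in TAA 1 and 102 to 1 in TAA 2. Both TAA libraries lay above both controls. Put as a share, 3p made up 1.03% and 1.24% of miR-21a reads in control and 0.90% and 0.97% in TAA. On the log2 scale the ratio was 6.45 ± 0.20 in control and 6.73 ± 0.08 in TAA (SD, n = 2), a difference of 0.27 (SE 0.20), or 1.21-fold with a 95% interval of 0.86 to 1.70. It did not pass limma's test over the 150 hairpins with enough counts in each arm (limma adjusted p = 0.985). Groups that do not overlap in this direction were found in 14.0% of those hairpins. None of the 150 passed limma's test (0.0%) and 5 (3.33%) had an unadjusted p under 0.05. With at least 100 counts per arm 1 of 99 passed, without control 1, 11 passed, and without control 2, 13 passed, miR-21a not among them. By mean ratio miR-21a stood at place 20 of the 150, between miR-26b and miR-139, and its 5p bias was far above the median log2 ratio of 0.30.

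The spread of miR-21a came mainly from the controls. Between the controls, miR-21a-5p differed 1.35-fold and miR-21a-3p 1.64-fold, control 2 being higher in both. Of the 137 miRNAs with a mean of at least 100 CPM, 14 differed more between the controls than miR-21a-5p did and 6 more than miR-21a-3p, and the median size of the log2 difference was 0.12. Of the 51 with at least 1000 CPM, 2 differed more than miR-21a-5p. Between the TAA libraries the log2 differences were -0.06 for 5p and 0.04 for 3p, both under the median size of 0.11.

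**Figure D2:**
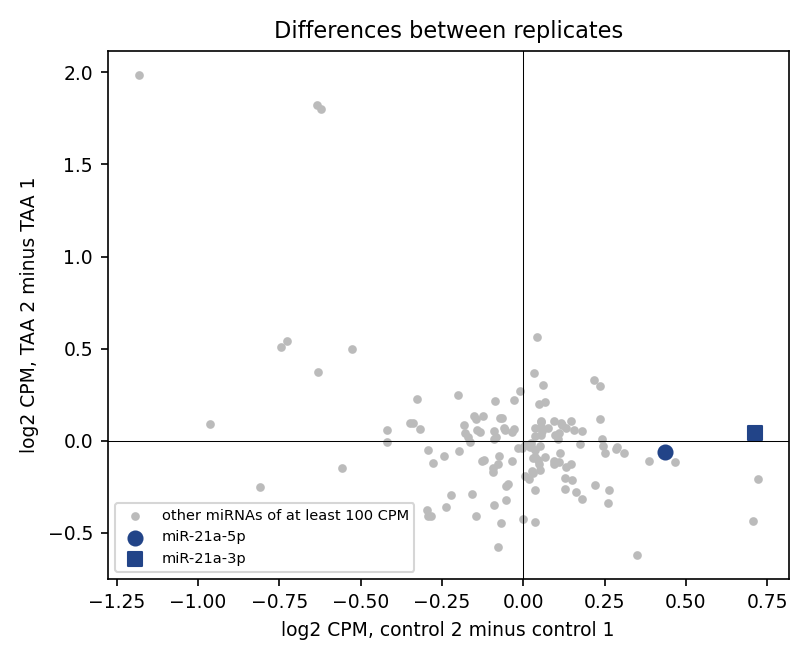
Difference in log2 CPM between control 2 and control 1 (x axis) and between TAA 2 and TAA 1 (y axis) for the 137 miRNAs with a mean of at least 100 CPM, 1 point each. Both miR-21a strands (blue) lie far to the right, at 0.44 and 0.71, and near 0 on the y axis.

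The direction of each strand depended on which control was used. Without control 1, the library with the pancreatic miRNAs, the log2 fold change of miR-21a-3p was -0.55 (SE 0.20, edgeR adjusted p = 0.0345), so that it passed as lower in TAA, and that of miR-21a-5p was -0.13 (adjusted p = 0.617). Without control 2 they were 0.18 (adjusted p = 0.693) and 0.31 (adjusted p = 0.0978). Without TAA 2, the library with the erythroid miRNAs, they were -0.23 for 3p and 0.12 for 5p, and without TAA 1 they were -0.20 and 0.05, none of them past the threshold of 0.05. In such fits the lone library of a group is taken to vary like the others.

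**Figure D3:**
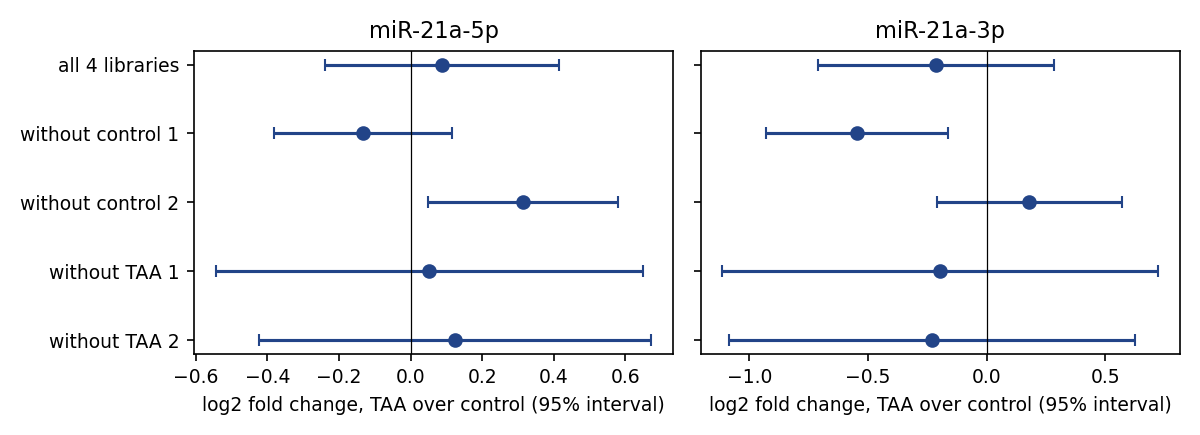
Log2 fold change of TAA over control (x axis) with its 95% interval for miR-21a-5p (left) and miR-21a-3p (right), with all 4 libraries and without each in turn. Leaving out control 1 or control 2 moves the points to opposite sides of 0, from -0.13 to 0.31 for 5p and from -0.55 to 0.18 for 3p.

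Of the 644 tested, 90 were higher in TAA (14.0%) and 17 lower (2.64%), and the median log2 fold change was -0.00420. Scaling shifted every value: upper-quartile factors moved that median to -0.17, miR-21a-5p to -0.09 and miR-21a-3p to -0.40. Library size alone moved them to 0.12, 0.22 and -0.08. Relative to the median of each of these 3 fits, miR-21a-5p was above and miR-21a-3p below. With upper-quartile factors 83 miRNAs rose and 32 fell, or 72.2% higher among those changed, against 84.1% with TMM factors. With the miRNAs between the genes Dlk1 and Dio3 left out, a choice made after seeing the data, 9 of 577 rose and 5 fell. The pro-fibrotic, anti-fibrotic, inflammation-induced and marker lists below hold 0 of those miRNAs among their tested members. The background shares given beside these lists include them.

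**Figure D4:**
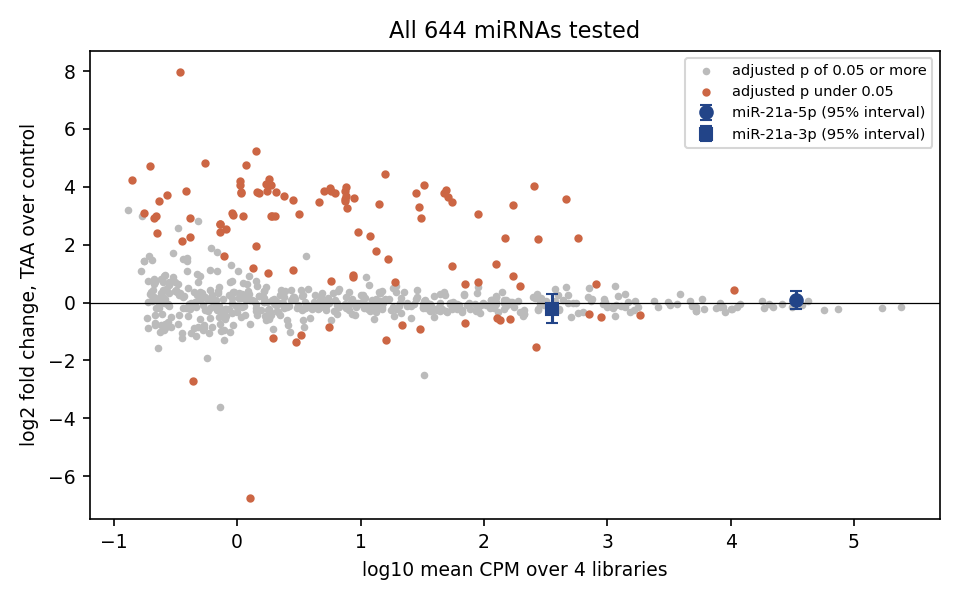
Log2 fold change of TAA over control (y axis) against the log10 mean CPM (x axis) for the 644 miRNAs tested, orange where edgeR's adjusted p was under 0.05. The strands of miR-21a (blue, with 95% intervals) lie at 0.09 and -0.21, and both intervals include 0.

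The miRNAs whose levels over the 4 libraries were most like those of miR-21a-5p were miR-1948-3p and miR-1948-5p, the strands of one hairpin, followed by miR-322-5p, miR-301a-3p and miR-99a-5p. Likeness was the root mean square difference of log2 CPM, each miRNA centred on its own mean, among 136 others with a mean of at least 100 CPM. It was 0.027, 0.079, 0.083, 0.115 and 0.116 in that order, beside a median of 0.21. miR-1948-3p measured 623 CPM in control 1, 814 in control 2, 780 in TAA 1 and 723 in TAA 2, the same order of libraries as miR-21a-5p. miR-21a-3p itself, at 0.173, stood at place 32 of the 136. A miRNA at the same level in all 4 libraries would lie nearer to miR-21a-5p, at 0.164. With miR-21a-3p as the reference, miR-21a-5p stood at place 6 of 136, beside a median of 0.30 and 0.267 for a flat profile. These distances describe 4 libraries and carry no test.

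miR-21a-5p belongs to a set of 15 miRNAs reported as pro-fibrotic, of which 3 rose and 0 fell (background 14.0% higher and 2.64% lower). The list's median, 0.19 on the log2 scale, compares with -0.00420 over all miRNAs. One of the 3, miR-34a-5p, a p53 target, measured 38.6 and 26.5 CPM in control and 81.2 and 73.2 in TAA (log2 fold change 1.25, SE 0.21, adjusted p = 0.00367 by edgeR). Another, miR-155-5p, a miRNA of activated immune cells, measured 6.24 and 5.71 CPM in control and 11.0 and 12.0 in TAA. miR-214-3p, expressed in stellate cells and fibroblasts, measured 59.3 and 50.9 CPM in control and 95.97 and 77.1 in TAA. In these 3 the groups were apart, while miR-21a-5p, with the highest mean level of the list, had overlapping groups. The TAA libraries were both above both controls in 7 of the 15, and both below in 1 (background 29.7% and 25.6%). The 7 included miR-199a-3p, miR-199b-3p and miR-199b-5p, strands of the same family, so they do not count as 7 separate miRNAs. With either TAA library left out, 0 of the 15 passed, and without control 1, 6 rose.

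A list of 14 miRNAs reported as induced by inflammatory signals, for example through NF-kB, AP-1 or STAT3, also holds miR-21a-5p. Of these, 3 rose and 0 fell (background 14.0% higher and 2.64% lower), with a median of 0.23. Beside miR-155-5p they were miR-146b-5p, a brake on Toll-like receptor signalling, at 13.4 and 15.3 CPM in control and 27.1 and 20.4 in TAA, and miR-212-3p, a CREB target, at 3.78 and 4.80 CPM in control and 6.78 and 7.60 in TAA. The last 2 were near the threshold (edgeR adjusted p = 0.0471 and 0.0474), and neither passed with upper-quartile factors or DESeq2 size factors. miR-221-3p and miR-222-3p, which share AP-1 as an inducer with miR-21, had log2 fold changes of -0.03 (SE 0.13) and 0.03 (SE 0.14). Without control 2, 5 of the list rose, without control 1, 1, and without TAA 1 or TAA 2, 0.

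Of 18 miRNAs reported as anti-fibrotic, 1 rose and 2 fell (background 14.0% higher and 2.64% lower), with a median of -0.25. The share called in either direction, 16.7%, was near the 16.6% of all miRNAs tested, which pools rises and falls. The list holds 0 of the Dlk1-Dio3 miRNAs, and without those 14 of 577 miRNAs were called, 1 of them in the list. miR-29b-3p and miR-29c-3p, which target collagen mRNAs, fell, with log2 fold changes of -0.54 (SE 0.14) and -0.49 (SE 0.11). Neither kept the call with library size alone. Over 13 alternatives, miR-29b-3p lost it in 7 and miR-29c-3p in 4. The lymphocyte miRNA miR-150-5p was the one that rose (1.34, SE 0.14). In 12 of the 18 both TAA libraries lay below both controls (background 25.6%). The same held for 5 of the 5 hepatocyte miRNAs, with 0 called and a median of -0.19, and miR-122-5p is in both lists. Without control 1, 7 passed, without control 2, 5, and without TAA 1 or TAA 2, 1.

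**Figure D5:**
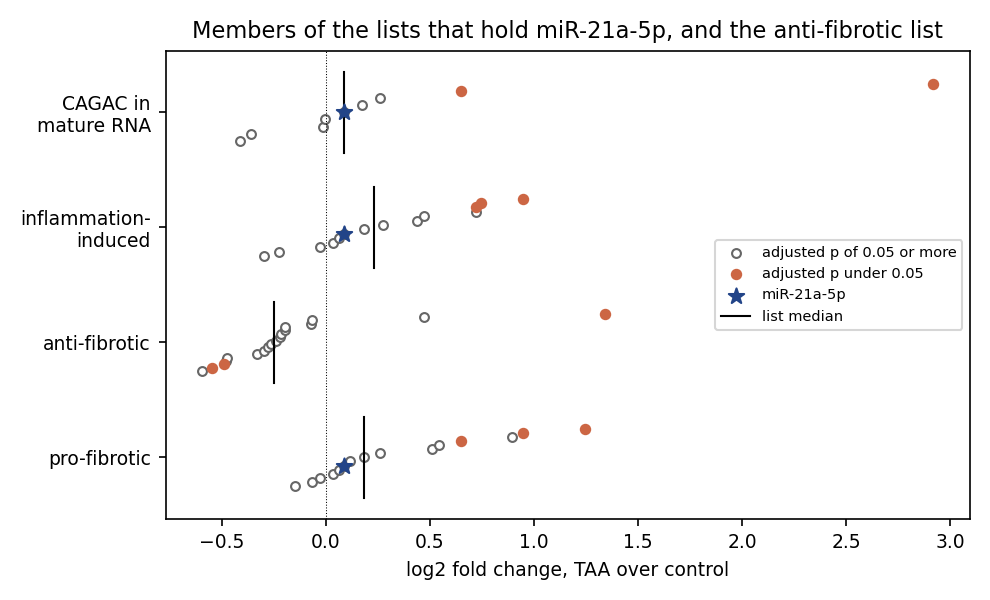
Log2 fold change of TAA over control (x axis) for the tested members of 4 lists, 1 point per miRNA and a line at each list's median, orange where edgeR's adjusted p was under 0.05. miR-21a-5p (star, 0.09) lies below the medians of the pro-fibrotic list (0.19) and the inflammation-induced list (0.23), and is itself the median of the CAGAC list.

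miR-21 carries a short element, CAGAC, that SMAD proteins of the TGF-beta pathway bind in some miRNA hairpins and that has been linked to faster processing. In miR-21a-5p it starts at base 9, just after the seed, shown here in capitals.
miR-21a-5p: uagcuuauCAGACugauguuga
Searched on the RNA strand only, CAGAC occurred in 26 of the 1623 mature miRNAs with a RefSeq sequence (1.60%) and in 80 of 1005 hairpins (7.96%). Among the 26 were 9 that could be tested. The median of these was 0.09 on the log2 scale, and 2 rose while 0 fell (background 14.0% higher and 2.64% lower). With upper-quartile factors that median was -0.09. Those that rose were miR-214-3p, which did not pass with upper-quartile factors, and miR-344d-3p, the latter with at most 19 counts in any library. miR-21b and miR-21c are also among the 9. Of 35 tested miRNAs from hairpins with the element, 5 passed, all higher, or 14.3% beside a background of 14.0% higher (2.64% lower). Of the 35, 2 lie between Dlk1 and Dio3. A match of these letters does not show that a SMAD protein bound there.

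Several marker lists, like both strands of miR-21a, were higher in control 2 than in control 1. The 6 leukocyte miRNAs took 0.0934% of counts in control 1, 0.135% in control 2, 0.205% in TAA 1 and 0.181% in TAA 2, and 3 of them rose in TAA (background 14.0%). In counts added after seeing the data, 1 of the 6 passed without TAA 1, 1 without TAA 2, 3 without control 1 and 6 without control 2. Their summed CPM was 1.55-fold higher in control 2 than in control 1, with 5 of 6 members higher. Most of that sum, and of those shares of counts, was miR-142a-5p, at 706 CPM in control 1 and 1164 in control 2. miR-223-3p went from 30.8 to 57.0 CPM, while miR-150-5p (67.4 and 74.6) and miR-342-3p (66.3 and 71.3) moved less. miR-142a-3p, the defining leukocyte miRNA of the list, measured 63.1 and 82.4 CPM in control and 106 and 104 in TAA, a difference that did not pass (edgeR adjusted p = 0.0756). The ratio of summed CPM in control 2 to control 1 was 1.15 for the endothelial miRNAs, with 2 of 2 higher, and 1.11 for the epithelial miRNAs, with 4 of 5 higher. It was 1.09 for the hepatocyte miRNAs, with 5 of 5 higher, and 1.01 for the mesenchymal miRNAs, with 1 of 5 higher. The 4 erythroid miRNAs went the other way, with a ratio of 0.60 and 0 of 4 higher. The share of all tested miRNAs higher in control 2 is not given beside these counts. Among miRNAs of at least 100 CPM the median size of the log2 difference between the controls was 0.12, so small ratios carry no pattern by cell type. All 4 erythroid miRNAs rose in TAA (background 14.0%), and their median log2 difference was 2.27. Without TAA 2 the count was 0 of 4 and the median 0.99. Of all markers listed, miR-216a-5p, miR-217-5p and the neural miR-124-3p were at 0 in at least 1 library. The part of these cells in the levels of miR-21a was not tested.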

How the data were processed

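The submitters' processing notes name Bowtie as aligner, HTSeq as counter and mm10 as build. Their versions, the trimming of adapters, the annotation release and the rule for reads matching several loci were not stated. The deposited files hold raw counts per mature miRNA, 1 file per library, from TruSeq small RNA libraries of total RNA per the labels. Their 5 summary rows, 31.3% to 34.6% of reads, name no miRNA and were left out of library sizes and tests.

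The counts went into edgeR 4.0.16 under R 4.3.3 (filterByExpr, TMM factors, quasi-likelihood F test). P-values were adjusted by Benjamini-Hochberg over 644 miRNAs, with a threshold of 0.05, and the standard error is the log2 fold change over the square root of F. Arm ratios, log2 of 5p over 3p counts with 0.5 added to each, were compared with limma 3.58.1 where both arms had 20 counts or more on average. A read spans a whole mature miRNA, so CPM need no scaling by length. The hairpin was folded with RNAfold 2.7.2. Both procedures were tested on simulated data. Alternatives were other scalings and filters, DESeq2 1.42.0, limma-voom, a replicate block and leaving out each library.

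The members and lists were chosen with earlier results of these data known. Named miRNAs are both strands, their relatives, neighbours in level, the 5 most alike, list members past the threshold (at most 5 by p) and the first marker of a list. miR-221-3p, miR-222-3p, miR-26b, miR-139, the miR-199 strands and the pancreatic markers were added after their values were seen. The same holds for miR-142a-5p, miR-223-3p and miR-342-3p. miR-590 was not analysed here.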

Additional observations from a re-analysis of the deposited data

How the results depend on the processing

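miR-21a-5p kept its direction in 11 of 13 alternatives and passed the threshold in 0. With upper-quartile factors its log2 fold change was -0.0920, and over the fits without 1 library it ran from -0.13 to 0.31. miR-21a-3p also kept its direction and call in 11 of 13; without 1 library it ran from -0.55, where it passed, to 0.18. The arm ratio kept its direction in 8 of 8, from 0.14 to 0.41 without 1 library. Over the alternatives the adjusted p ran from 0.0978 to 0.925 for 5p, from 0.0345 to 0.876 for 3p and from 0.906 to 0.991 for the ratio.

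Counts of changed miRNAs moved more. Of all miRNAs, 107 changed, 41 with at least 10 CPM in 2 libraries (282 tested), 49 to 131 without 1 library, and 14 without the miRNAs between Dlk1 and Dio3, an alternative chosen after seeing the data. The pro-fibrotic count was 6 with library size alone, with no filter and with the replicate block, and 0 to 6 without 1 library. The anti-fibrotic count was 6 with no filter, 1 without the Dlk1-Dio3 miRNAs and 1 to 7 without 1 library. The inflammation-induced count was 1 with DESeq2 size factors, upper-quartile factors, the 10 CPM filter or no Dlk1-Dio3 miRNAs, and 0 to 5 without 1 library. For CAGAC in the mature strand it was 1 with upper-quartile factors, the 10 CPM filter, DESeq2 and the replicate block, 0 without the Dlk1-Dio3 miRNAs and 0 to 2 without 1 library. For CAGAC in the hairpin it was 3, 8, 9 and 2 with upper-quartile factors, library size alone, no filter and the 10 CPM filter, 0 without the Dlk1-Dio3 miRNAs and 1 to 7 without 1 library. miR-21b turned to 0.12 with library size alone, 0.0237 with limma-voom, 0.0106 with the replicate block and 0.0248 without the Dlk1-Dio3 miRNAs, and ran from -0.34 to 0.37 without 1 library; miR-21c ran from -0.89 to 0.44. With a minimum of 1000 CPM, 1 of the 5 most alike miRNAs, miR-99a-5p, remained among the 5. The rest lay under that minimum and could not remain. The strict filters test fewer miRNAs; other causes were not tested.

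The labels give the replicates numbers but no pairing. Deviations of control 1 and TAA 1 from their group means had a correlation of -0.28 over 273 miRNAs, so the replicate block (110 miRNAs changed, miR-21a-5p 0.10, miR-21a-3p -0.17, arm ratio 0.27) is an alternative only. The counting interval of the miR-21a-5p share in TAA 1, 3.687% to 3.698%, was narrower than the differences between libraries.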
